A study of Bubalus bubalis with 3 samples.

Results

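The DLK1-DIO3 region is an imprinted locus of mammals that holds one of the densest groups of miRNA genes known in them. Its miRNAs were described here in fat of 6-month-old calves of Chinese swamp buffalo, Bubalus bubalis. Members were the bovine miRNA names whose number belongs to this region, with or without a letter and an arm, and the rule for choosing them uses no measured value. They came to 46 of the 622 names listed for the series, or of the 396 names that carry a bovine miRNA name. Of 43 region numbers, 34 matched at least 1 name and the other 9 (miR-134, miR-329, miR-337, miR-412, miR-539, miR-656, miR-668, miR-889 and miR-1193) were not analysed here.

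The series held 1 group of 3 small RNA libraries, called library 1, 2 and 3 after the numbers in the labels. All came from adipose tissue of swamp buffalo from a slaughterhouse, without a named treatment, genotype or sex. The labels name neither the fat depot nor whether each library came from its own animal, so an SD measures how far these samples differ, for technical reasons or others. Values were TPM, the reads of a name as a proportion of those of all listed names, scaled to the same total in each library. No scaling by miRNA length was visible. With 1 group, the only test was that between the arms of a hairpin within a library, and everything else is a description.

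In mouse, human and sheep, the paternal copy of the region expresses the protein genes DLK1, RTL1 and DIO3, while the maternal copy expresses long non-coding RNAs and the miRNAs. DLK1, also called preadipocyte factor 1, restrains the differentiation of fat cells, and in sheep a variant of this region gives the callipyge trait of heavy muscle and little fat. The miRNA genes lie in 2 blocks, one with miR-127 that in part runs antisense to RTL1, and a longer one from miR-379 to miR-410. In the RefSeq annotation of the buffalo (assembly NDDB_SH_1), RTL1 lies between DLK1 and DIO3, with BEGAIN on the far side of DLK1. The deposited names are bovine, and the hairpins were not placed on a genome here.

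The miRNAs of the region made up a small but variable share of the pool, and nearly all of it was miR-127 and miR-411a. All 46 members together held 2.42%, 0.664% and 0.990% of TPM in libraries 1, 2 and 3 (1.36% ± 0.934, SD, n = 3). The Wilson 95% intervals of these shares, 2.41% to 2.43%, 0.658% to 0.670% and 0.981% to 0.998%, cover counting error only and did not overlap. Library 1 thus had the highest share, and without it the mean was 0.827%. The most abundant name of the series, miR-10b, took 26.5%, 48.8% and 40.4% of TPM in the 3 libraries, and its share was lowest where the members' share was highest. Once miR-10b was left out of the total, the members held 3.29%, 1.30% and 1.66% of the rest, in the same order of libraries.

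Of the 46 members, 15 (32.6%) had a mean of at least 10 TPM, against 26.7% of all listed names and 40.2% of the bovine miRNA names. The median of the members' mean levels was 3.47 TPM, against 4.82 TPM over the bovine names. Of the 15, 2 exceeded 1000 TPM, 1 more exceeded 100 TPM and 12 lay between 10 and 100 TPM. Another 14 members lay between 1 and 10 TPM and 17 below 1 TPM. In every library 28 members (60.9%) had at least 3 reads, the floor used here, against 49.5% of all listed names and 65.2% of the bovine names. Mean levels of members ran from 0.0333 to 10050 TPM, and the shares of members past either level lay between those of all names and those of bovine names.

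The miR-127 block was measured through 8 names, of which 3 reached the mean of 10 TPM. miR-127, which in mouse is transcribed antisense to Rtl1 and cleaves its transcript, had 17805, 5154 and 7191 TPM in libraries 1, 2 and 3 (10050 ± 6793 TPM, SD, n = 3). Its value in library 1 was 3.45 times that in library 2 and 2.48 times that in library 3. miR-127 alone held 73.6%, 77.7% and 72.7% of the members' TPM in the 3 libraries (74.6% ± 2.66, SD, n = 3). Its share of the region varied less than its level, but miR-127 is itself most of that sum, which limits how far the share can change. Its mean level was 6173 TPM without library 1.

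miR-136, the next member of that block and likewise antisense to Rtl1 in mouse, had 159, 36.2 and 72.7 TPM in the 3 libraries (89.4 ± 63.3 TPM, SD, n = 3). miR-432 had 23.9, 6.2 and 12.6 TPM (14.2 ± 8.96 TPM). All 3 members were highest in library 1 and lowest in library 2. This was common as deposited: of the 166 names at 10 TPM or more, 115 were highest in library 1 and 152 lowest in library 2. The other 5 names of the block lay below 10 TPM. miR-493 had 12.1, 3.2 and 7.7 TPM, and miR-665 had 3.5, 1.9 and 0.2 TPM. miR-370, which in human liver cells lowers CPT1A, an enzyme of fatty acid oxidation, had 2.0, 0.4 and 0.4 TPM, and miR-433 and miR-431 had means of 0.700 and 0.167 TPM. Neighbours on 1 transcribed block in other mammals were thus listed at levels from 0.167 to 10050 TPM.

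The miR-379 block was measured through 38 names, and it held 25.6%, 21.6% and 26.4% of the members' TPM in libraries 1, 2 and 3. miR-411a led it with 5220, 1130 and 2211 TPM (2854 ± 2119 TPM, SD, n = 3), 21.6%, 17.0% and 22.3% of the members' TPM. The other 37 names of the block came to 974, 304 and 400 TPM together. miR-411a was therefore both the second member of the region and the bulk of its block, again highest in library 1, and its mean was 1671 TPM without that library.

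The remaining names of this block above the mean of 10 TPM had means from 13.0 to 109 TPM. miR-409a had 204, 79.6 and 43.0 TPM in libraries 1, 2 and 3 (109 ± 84.3 TPM, SD, n = 3), and was lowest in library 3. miR-410, from the far end of the block, had 147, 28.8 and 54.7 TPM (76.9 ± 62.2 TPM). miR-381, which in rat neurons is induced with the rest of the block by the factor MEF2, had 133, 31.8 and 51.8 TPM (72.3 ± 53.7 TPM). As deposited, these 3 miRNAs were all highest in library 1, by 2.56 to 5.11 times over library 2. These ratios include the scale of the libraries. After the size factors described below they were 1.12 for miR-409a, 2.24 for miR-410 and 1.84 for miR-381.

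miR-380-3p had 100.4, 18.6 and 48.1 TPM in the 3 libraries (55.7 ± 41.4 TPM, SD, n = 3). miR-154c had 74.2, 12.0 and 26.6 TPM (37.6 ± 32.5 TPM). miR-369-3p, an arm shown in human cells to act on the AU-rich element of tumour necrosis factor mRNA, had 50.7, 8.4 and 19.1 TPM (26.1 ± 22.0 TPM). All 3 kept the order of library 1, then 3, then 2. miR-487b had 24.8, 4.3 and 9.8 TPM (13.0 ± 10.6 TPM) and kept it too, though its value in library 2 rests on about 29 reads, with an exact Poisson 95% interval of 2.87 to 6.15 TPM. Most of the 166 names at 10 TPM or more were likewise highest in library 1 and lowest in library 2 as deposited.

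Other members differed from that pattern. miR-379, the first hairpin of the block, had 47.5, 69.4 and 45.0 TPM in libraries 1, 2 and 3 (54.0 ± 13.4 TPM, SD, n = 3) and was highest in library 2. The exact Poisson 95% interval of the library 2 value, from about 470 reads, was 63.3 to 76.0 TPM. miR-655, which in human cells represses the transcription factor ZEB1, had 18.4, 5.5 and 25.7 TPM (16.5 ± 10.2 TPM) and was highest in library 3. miR-411c-3p had 20.3, 15.2 and 17.0 TPM (17.5 ± 2.59 TPM) and spanned the narrowest range of the 15, though in the order of library 1, then 3, then 2. These members and miR-409a were picked out after their values were seen.

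**Figure D1:**
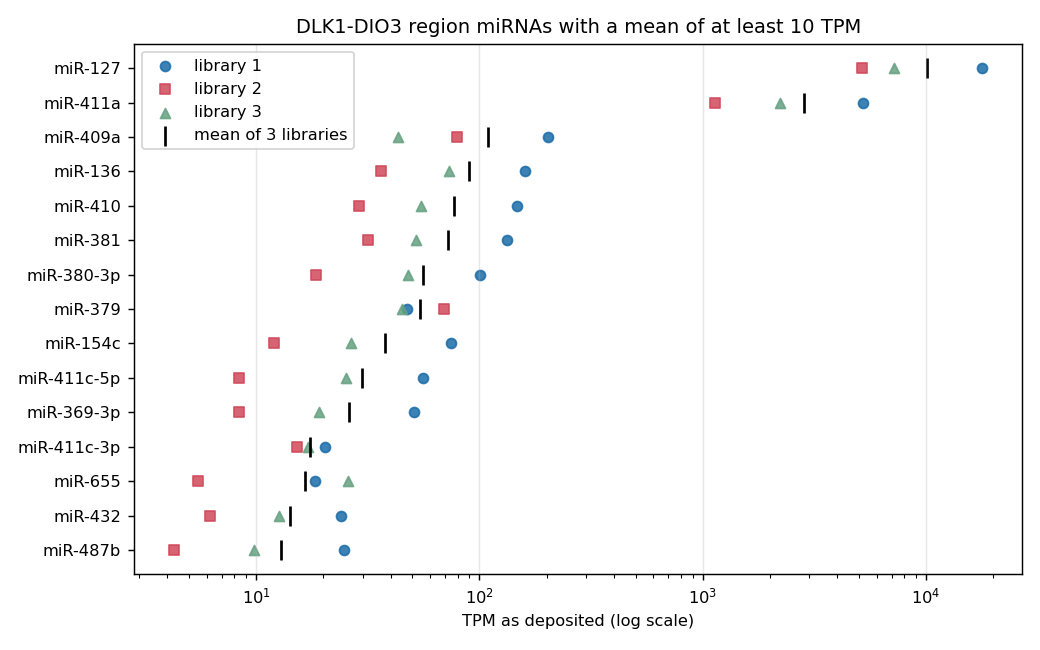
The 15 members whose mean reached 10 TPM are given by row, with TPM as deposited on a log axis, a point per library and a bar at the mean of the 3 libraries. miR-127 (mean 10050 TPM) and miR-411a (2854 TPM) stand apart from the other members, which have means of 13.0 to 109 TPM, and miR-379 and miR-655 are the only rows whose library 1 point is not the highest.

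In the order of mean levels, neighbouring members were compared within each library on the log2(TPM + 1) scale. Of 14 neighbouring pairs, 5 differed by more than the SD of their difference and kept their order in all 3 libraries. miR-127 exceeded miR-411a by 1.89 ± 0.26 log2 units (SD, n = 3) and miR-411a exceeded miR-409a by 4.71 ± 0.92. miR-136 over miR-410 (0.28 ± 0.15), miR-381 over miR-380-3p (0.42 ± 0.32) and miR-154c over miR-411c-5p (0.31 ± 0.21) were the others. The remaining 9 pairs were not separated beyond this spread, so the order from miR-409a downwards is only partly set.

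Several members share a number and differ by a letter, and in most such families 1 name held nearly all of the TPM. miR-411a took 98.2% ± 0.314 of the TPM of the 4 miR-411 names (SD, n = 3). miR-409a took 93.0% ± 4.38 of the miR-409 pair and miR-154c 90.9% ± 3.08 of the 3 miR-154 names. miR-487b took 98.3% ± 2.88 of the miR-487 pair, where miR-487a had 1.3 TPM in library 1 and was listed at 0 in libraries 2 and 3. The miR-376 family, whose seeds are edited from adenosine to inosine in mouse and human brain, was more evenly divided, with miR-376b at 52.5% ± 11.6 of the TPM of 5 names. miR-376b had 11.9, 1.8 and 3.5 TPM in libraries 1, 2 and 3 and miR-376e had 5.7, 1.6 and 4.0 TPM, so miR-376e led in library 3. Mature sequences within such families can be close, and no source used here says how reads that match several names were divided, so the split within a family is uncertain.

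Among the members below 10 TPM, 31 in all, none was at 0 in every library. The highest were miR-493 (7.67 ± 4.45 TPM, SD, n = 3), miR-409b (12.4, 2.8 and 5.8 TPM in libraries 1, 2 and 3), miR-376b (5.73 ± 5.41 TPM), miR-654 (5.50 ± 5.88 TPM) and miR-299 (4.60 ± 2.34 TPM). At least 3 reads in every library were found for 13 of the 31. Of the 396 bovine names, 159 reached a mean of 10 TPM, and 99 of those below it passed the same floor. The 13 is thus not read as a trait of the members. All 13 members were highest in library 1 as deposited, against 60.6% of bovine names at the same level. After division by size factors, which put the libraries on a common scale as described next, 12 of them remained highest in library 1, against 34.3% of such names. The exception, singled out after its values were seen, was miR-299, with 7.3, 3.4 and 3.1 TPM as deposited.

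The other 18 low members lacked 3 reads in at least 1 library. miR-665 had about 24, 13 and 1 reads in libraries 1, 2 and 3, and miR-370, miR-433 and miR-377 had 14, 10 and 10 reads in library 1. In no library did miR-431, miR-369-5p, miR-376a, miR-376c, miR-411b or miR-544a reach 3 reads, and miR-376c was seen through 1 read in library 1. miR-494, by contrast, had 4.5, 1.2 and 2.6 TPM, about 31, 8 and 14 reads. Of the 46 members, 40, 31 and 30 reached 3 reads in libraries 1, 2 and 3, where 3 reads were worth 0.437, 0.443 and 0.547 TPM. The share of all names at 3 reads was not counted library by library, so these counts have no background. Below these TPM levels the depth cannot tell a low member from an absent one.

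**Figure D2:**
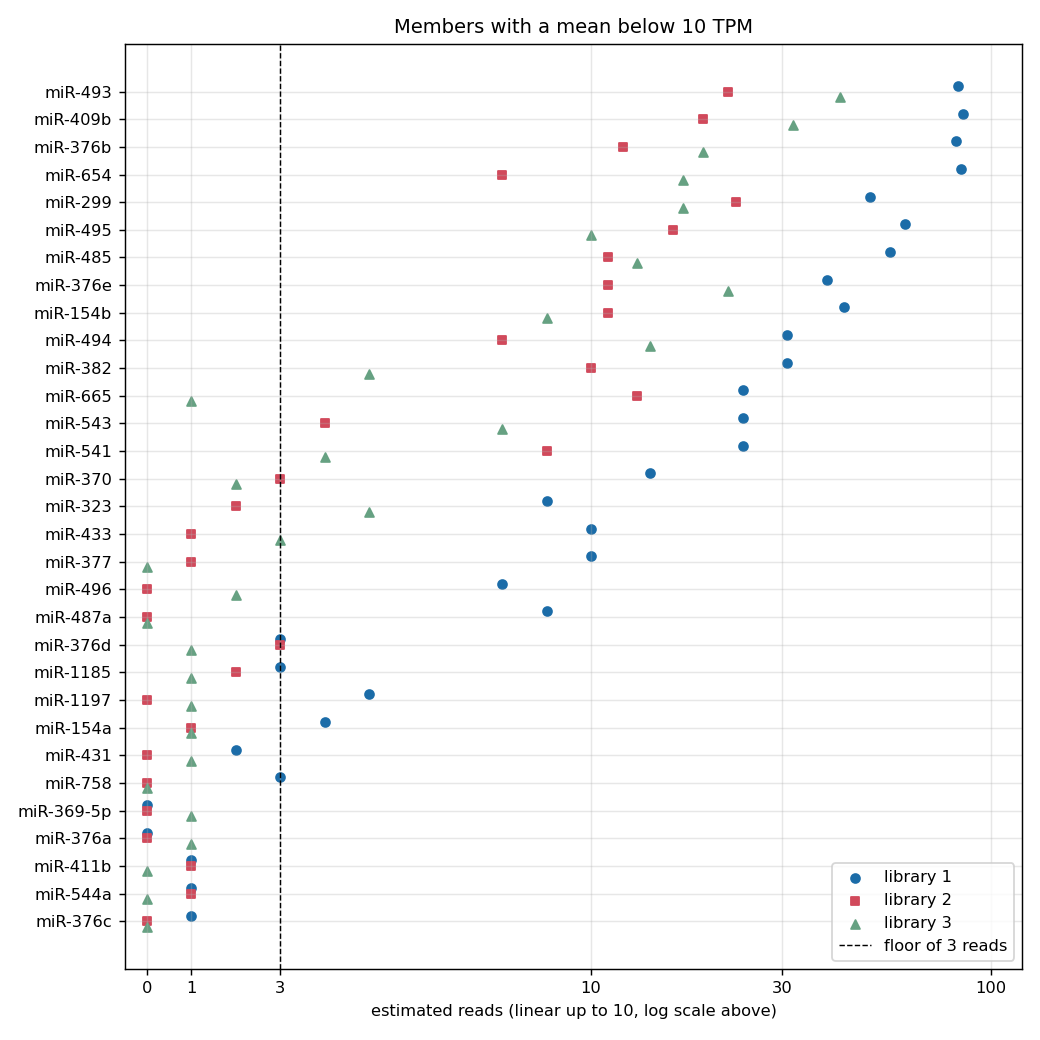
The 31 members with a mean below 10 TPM are given by row, with the reads estimated for each library on an axis that is linear up to 10 reads and a log scale above, and a dashed line at 3 reads. Of them, 13 lie at or right of the line in all 3 libraries, and 6 lie left of it in all 3.

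The libraries differed in scale as well as in composition, so members were also compared after median-ratio size factors (1.40, 0.613 and 1.17 for libraries 1, 2 and 3). As deposited, the 166 names of the series whose mean reached 10 TPM had median deviations from their own mean of 0.47, -0.70 and 0.20 on the log2(TPM + 1) scale in the 3 libraries. The 15 members had 1.14, -1.06 and -0.09. After size factors the members' medians were 0.66, -0.35 and -0.29. Those of the 151 names that are no members were -0.04, 0.01 and 0.02. The median over all 166 names, -0.01 in each library, is set by the size factors, which were computed over the same names. Relative to most other names, the region was thus higher in library 1 on either scale.

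Counted by member, 12 of 15 (80.0%) were highest in library 1 after size factors, against 31.9% of the 166 names. As deposited, 13 of 15 (86.7%) were, against 69.3%. Of the 20 names with the highest deviation in library 1 after size factors, 10 were members, so 10 of 15 members (66.7%) lay there, against 12% of the 166 names. Among the miR-127 block all 3 were highest in library 1, and among the miR-379 block 9 of 12 were. Of the members counted, miR-432 and miR-487b reached the mean of 10 TPM only through library 1, with 9.4 and 7.05 TPM without it. The minimum thus favours names that are high in library 1, and it was applied alike to the 166 names. With 3 libraries of 1 group these counts were not tested.

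After size factors, miR-127 had 12730, 8404 and 6168 TPM in libraries 1, 2 and 3, 1.51 and 2.06 times as much in library 1 as in libraries 2 and 3. miR-411a had 3732, 1843 and 1897 TPM, 2.03 and 1.97 times as much. The largest ratio of library 1 over library 2 among the 15 members at 10 TPM or more was that of miR-411c-5p, at 2.93 times. miR-379 had 34.0, 113 and 38.6 TPM, 0.300 times as much in library 1 as in library 2, and was the member furthest from the rest. Its deviation of 1.08 in library 2 was the 5th highest of the 166 names there. miR-409a had 146, 130 and 36.9 TPM, and its deviation of -1.25 in library 3 was the lowest of the 166.

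**Figure D3:**
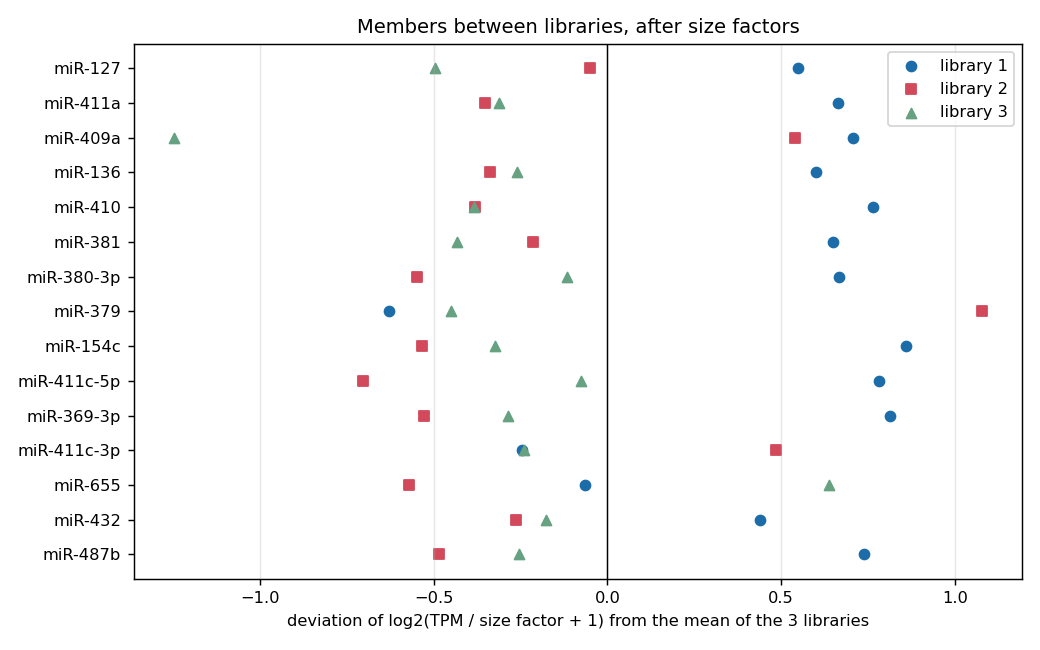
Each row is a member whose mean reached 10 TPM, and each point is the deviation of log2(TPM / size factor + 1) in 1 library from the mean of the 3 libraries. In 12 of 15 rows the library 1 point is the rightmost, and the exceptions are miR-379 and miR-411c-3p, highest in library 2, and miR-655, highest in library 3.

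The median SD between libraries after size factors was 0.62 log2 units for the 15 members, against 0.29 for the 166 names, and each of the 15 members lay above 0.29. Their SDs ran from 0.38 for miR-432 to 1.08 for miR-409a. Library 1 set much of this spread, and without it the members' median SD was 0.30, over the 13 that then had a mean of at least 10 TPM. After size factors the members summed to 17303, 10821 and 8488 TPM in libraries 1, 2 and 3.

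Most members moved between libraries together, and their ratios to each other were steadier than their levels. miR-136 had 3.05%, 3.20% and 3.29% of the TPM of miR-411a in libraries 1, 2 and 3, an SD of 0.05 on the log2 scale of the ratio. miR-410 had 2.82%, 2.55% and 2.47% (SD 0.10) and miR-381 had 2.55%, 2.81% and 2.34% (SD 0.13). These ratios do not depend on the scaling of a library.

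The other members of this steady group were miR-487b (SD of the log2 ratio 0.16), miR-432 (0.17), miR-369-3p (0.19), miR-380-3p (0.20), miR-154c (0.21), miR-127 (0.26) and miR-411c-5p (0.34). The 10 steady members included all 3 of the miR-127 block. Thus 10 of 14 members (71.4%) had an SD below 0.35 relative to miR-411a, against 11.5% of 165 names, a limit chosen after the values were seen. The median SD was 0.21 for the members and 0.65 for the other 151 names. Relative to miR-127 in place of miR-411a, 5 of 14 members (35.7%) lay below 0.35, against 9.09% of the names. Library 1 carried the contrast with other names: without it 9 of 14 members (64.3%) lay below 0.35, against 64.2% of the names. The remaining members were miR-655 (0.89), miR-411c-3p (0.90), miR-409a (0.93) and miR-379 (1.38). miR-379 had 0.910%, 6.14% and 2.04% of the TPM of miR-411a, although the hairpins lie side by side in other mammals.

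**Figure D4:**
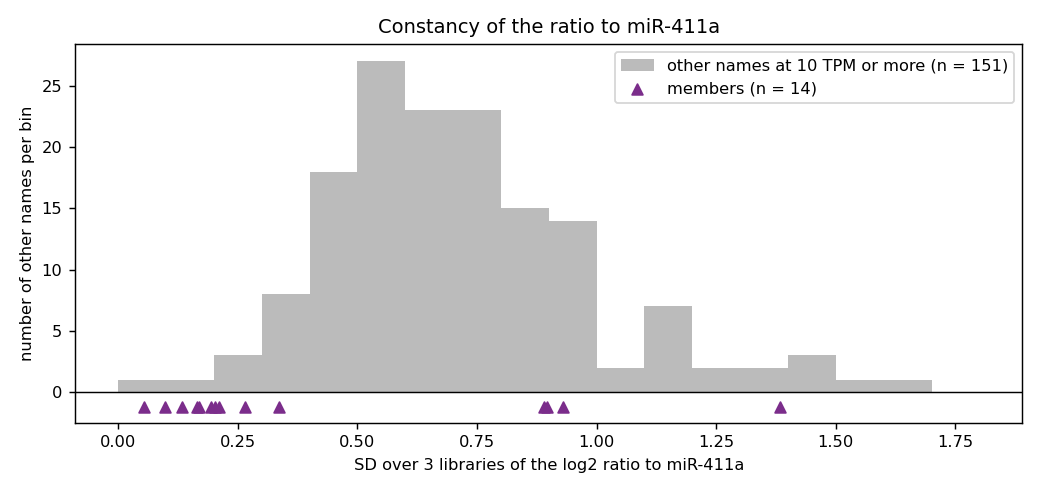
Grey bars count the 151 other names whose mean reached 10 TPM by the SD over 3 libraries of their log2 ratio to miR-411a, and triangles below the axis mark the 14 members besides miR-411a. Of the members, 10 lie below 0.35 and 4 lie at 0.89 to 1.38, while the other names have a median of 0.65.

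Both arms were listed for 33 hairpins of the series, of which 20 had a mean of at least 10 TPM in an arm and entered limma. The hairpins miR-369 and miR-411c were the only ones of the region among them. For miR-369 the 5p arm was listed at 0, 0 and 0.2 TPM in libraries 1, 2 and 3, against 50.7, 8.4 and 19.1 TPM for the 3p arm. The 3p arm was higher in every library. In reads this was about 1 read of the 5p arm and 510 reads of the 3p arm, a ratio of 510 of 3p over 5p with an exact 95% counting interval of 91.1 to 20183. More of the 3p arm was called for 30% of the tested hairpins and more of the 5p arm for 55%. The hairpin miR-369 was among those called for 3p, but it entered through its high 3p arm alone and the size of its log2 difference depends on the pseudocount, so the reads are the measurement given here. The p-values lean on a spread pooled over hairpins.

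For miR-411c no arm was called over the 3 libraries. The 5p arm had 56.1, 8.4 and 25.3 TPM in libraries 1, 2 and 3, against 20.3, 15.2 and 17.0 TPM for the 3p arm. The 5p arm was thus higher in libraries 1 and 3 and the 3p arm in library 2, with differences of 1.42, 0.55 and -0.79 log2 units and a mean of 0.39 ± 1.11 (SD, n = 3; limma adjusted p = 0.214). Library 2 decided the call, since without it the difference was 0.98 (limma adjusted p = 0.0210), and without library 1 it turned to -0.12 (adjusted p = 0.742). The SD of the log2 ratio to miR-411a was 0.34 for the 5p arm and 0.90 for the 3p arm, although both arms come from the same precursor. The 5p arm lay just below the limit of 0.35, which was chosen after the values were seen. Relative to miR-127 the SDs were 0.60 and 0.72, so neither arm was steady there.

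miRNAs of other imprinted loci were low. miR-335, from the MEST gene, had 8.3, 1.8 and 4.9 TPM in libraries 1, 2 and 3. miR-296-3p, from the GNAS locus, had 2.5, 0.6 and 1.8 TPM. miR-483, from the IGF2 gene, had 0.1, 0.1 and 0.4 TPM, below 3 reads in every library. Of 6 names planned, 3 were analysed, and each had a mean level below 10 TPM. As deposited, miR-335 and miR-296-3p were highest in library 1 and lowest in library 2. This was common: of the 166 names at 10 TPM or more, 115 were highest in library 1 and 152 lowest in library 2. After size factors the deviations in libraries 1, 2 and 3 were 0.41, -0.41 and -0.004 for miR-335. Those of miR-296-3p were 0.21, -0.29 and 0.08, while miR-483 was highest in library 3. A likeness to the members was not tested.

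Markers of other cells were set beside the region, since fewer cells of a type and less RNA per cell cannot be told apart in bulk tissue. The white fat cell list of miR-143, miR-103, miR-107 and miR-378 had all 4 members at 10 TPM or more, and its median deviations after size factors were 0.08, -0.18 and 0.10 in libraries 1, 2 and 3. The white blood cell list was, like the region, highest in library 1, with 0.65, -0.27 and -0.58. All 6 of its names lay above their own mean in library 1 and 5 of 6 were highest there. Of the 166 names at 10 TPM or more, 77 lay above their own mean in library 1 and 53 were highest there. Libraries 2 and 3 differed from the region: all 6 names were lowest in library 3 after size factors. Of the 15 members, 9 were lowest in library 2 and 4 in library 3. Of the 166 names, 52 were lowest in library 2 and 55 in library 3. The summed level of the white blood cell list after size factors was 1404, 673 and 601 TPM in the 3 libraries, and none of its defining names was at 0. The names miR-146a (1049, 223 and 404 TPM as deposited) and miR-150 (373, 94.4 and 159 TPM) had SDs of 0.07 and 0.13 in their log2 ratio to miR-411a. The other names of the list at 10 TPM or more had larger ones, 0.31 for miR-155, 0.46 for miR-142-5p and 0.62 for miR-142-3p. miR-223 lay below 10 TPM and was highest in library 2 after size factors. The part of white blood cells in the higher level of the region in library 1 was not tested.

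Other lists had smaller median deviations in library 1. The red blood cell list had median deviations of 0.29, -0.56 and 0.09 after size factors, and its summed level was 4420, 4170 and 4328 TPM. Of 7 striated muscle names none reached a mean of 10 TPM, and they summed to 25.9, 16.1 and 21.2 TPM after size factors, with miR-206 and miR-208a at 0 in libraries 2 and 3 and a median deviation in library 1 of 0.23. Of 8 nervous tissue names 3 reached 10 TPM, and the list summed to 58.6, 49.1 and 71.0 TPM, with miR-137 at 0 in libraries 1 and 2 and a median deviation in library 1 of -0.14. The fibroblast stroma and vessel wall lists had median deviations in library 1 of 0.01 and -0.19. The part of each of these cells in the members' levels was not tested.

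**Figure D5:**
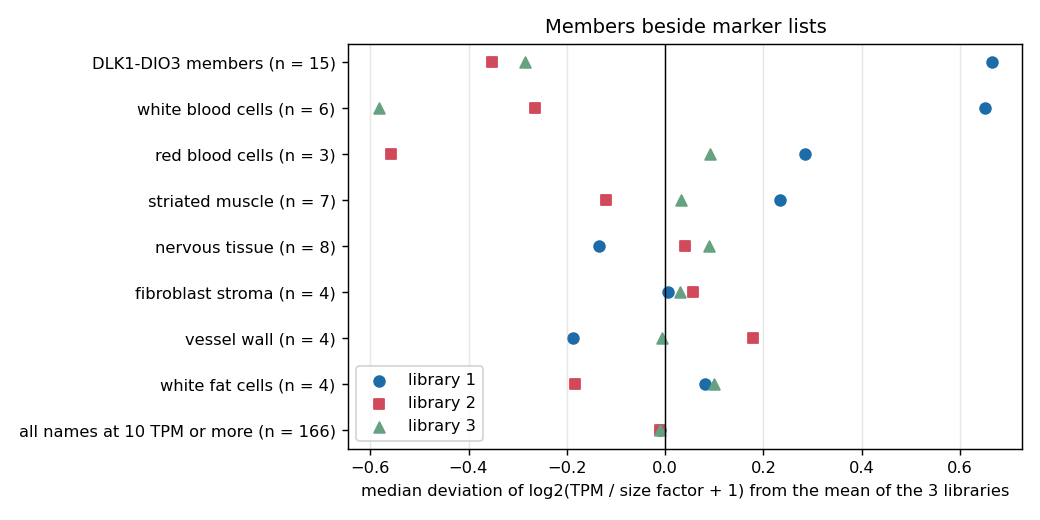
Each row is a list of names, with the number of names in brackets, and each point is the list's median deviation of log2(TPM / size factor + 1) in 1 library from the mean of the 3 libraries. The DLK1-DIO3 members (0.66 in library 1) and the white blood cell list (0.65) lie furthest right in library 1. The 166 names whose mean reached 10 TPM lie at -0.01 in each library, as set by the size factors computed over them.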

How the data were processed

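Small RNA of 3 adipose libraries was analysed. Per the labels' protocols, RNA was extracted with TRIzol, libraries were made with a TruSeq kit by adaptor ligation, and cDNA was selected by size on a gel. The aligner Bowtie and the bovine build UMD3.1 appear, per the submitters' processing notes, without version or step. Not given in the sources used here is how reads were counted, annotated and filtered. TPM with 1 decimal, named per the file headers, is the unit the authors deposited, and each column sums to 1000000 within rounding. All 3 value columns were mapped by name, with 0 left unmapped.

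Low values lay on whole multiples of 1 step (0.146, 0.148 and 0.182 TPM), the worth of 1 read, which gives about 6860000, 6770000 and 5480000 reads. Reads are estimates from these steps, so no count model was fitted. Intervals (95%) and the floor of 3 reads cover counting error only, since PCR copies can stem from the same molecule.

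Tests and deviations used log2(TPM + 1), a scale that understates the change of low names. Size factors were median ratios over the names above 0 in every library whose mean reached 10 TPM, 166 in all. Arm differences were tested with limma 3.58.1 (R 4.3.3), 2-sided, with Benjamini-Hochberg adjustment over 20 hairpins. Other steps used Python 3.11.15, and the statistics were tested on simulated data. Every member at 10 TPM or more, with both arms listed, or among the 5 highest below 10 TPM was named. The rule for members uses names alone, but the members, lists and blocks were chosen with earlier results of these data known. Alternatives were other pseudocounts, minimum means, floors and scalings, and leaving out each library. Mature miRNA sequences were not used here.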

Additional observations from a re-analysis of the deposited data

How the results depend on the processing

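Over the alternatives run, the members' summed share, the share of miR-127 among them and their median deviation in library 1 moved by less than the SD between libraries. For the summed share and the deviation that SD is wide, since it includes the difference of library 1. The summed share ran from 0.827% to 2.08%, the share of miR-127 from 73.1% to 75.6% and the deviation from 0.49 to 1.14. At a minimum mean of 1 TPM in place of 10 TPM, 29 members passed and 24 of them were highest in library 1, at 100 TPM 3 passed and 3 were highest there, and with no minimum 35 of 46 were. These counts follow the number of members that enter. The share of all names highest in library 1 was not counted at these minimums, so the counts have no background. The median SD of the members was 1.11 log2 units on TPM as deposited and 0.84 once miR-10b was left out. Leaving out each library in turn gave 0.30 to 0.75 for that SD and -0.12 to 0.98 for the 5p minus 3p difference of miR-411c, whose turn to -0.12 came without library 1. The count of 10 members with a steady ratio to miR-411a was 5 relative to miR-127, 8 and 10 at limits of 0.25 and 0.5, and 9 to 10 with a library left out, alternatives chosen after the data were seen. The share of all names below the limit was 9.09% relative to miR-127, and 6.67% and 24.8% at the other limits. It was 15.8% and 13.9% without libraries 2 and 3. Without library 1 it was 64.2%, against 64.3% of members, so the contrast with other names was lost there. The count of members highest in library 1 has no value without that library, and no member hairpin entered at a minimum of 100 TPM. The miR-369 difference was -7.13 with a pseudocount of 0.1 and -1.66 with 10. No paired analysis was possible because the labels give 1 group. Depth limits what can be said of the 18 members that lacked 3 reads in some library.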
